A study of Mus musculus with 12 samples.

Results

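The 31 genes described here mark neutrophils or encode what neutrophils store, sense and secrete. They were taken by name from the deposited table of 46095 genes, in which all 31 have a row. They were divided by role, from general knowledge, into 8 granule genes of the immature cell (Mpo, Elane, Ngp, Ltf, Camp, Mmp8, Cd177 and Pglyrp1) and 23 genes that mature neutrophils express, among them the calprotectin subunits S100a8 and S100a9, the receptors Cxcr2 and Csf3r and the effectors Slfn4 and Mmp9. The rule uses gene names and no expression value, but the members and the other gene lists were chosen with earlier results of these data known. Several of the 23 are also made by monocytes, epithelium or endothelium, and the last group below is kept apart for that reason.

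RNA from whole pancreas of mice was sequenced, in 6 libraries of wild type C57BL/6J animals (WT 1 to 6) and 6 libraries of Axl-/-Mertk-/- animals (AMKO 1 to 6). Both deleted genes encode receptor kinases by which phagocytes bind dying cells. Every mouse was at postnatal day 56 and received caerulein, a peptide that overstimulates acinar cells and brings on acute pancreatitis, at 100 µg/kg by 10 intraperitoneal injections 1 h apart, with tissue taken 12 h after the first. No untreated pancreas was analysed here, so each value is a level in the inflamed organ. The sources used here do not give the strain background of the AMKO mice or the mouse behind each library, so strain background and receptor loss cannot be told apart. If libraries shared a mouse, the p-values would reflect just the variation among these libraries, which may be technical.

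Neutrophils are made in the bone marrow, where each stage of maturation fills a different set of granules. Promyelocytes express the primary granule enzymes myeloperoxidase and neutrophil elastase, myelocytes and metamyelocytes express the secondary granule proteins lactoferrin, cathelicidin and NGP, and the cells that leave for the blood have largely stopped transcribing both sets while keeping the proteins. Mature cells transcribe calprotectin, the chemokine receptor CXCR2 and the G-CSF receptor, and in caerulein pancreatitis they enter the pancreas within hours. The title of the series names CXCL2 and neutrophil infiltration, so the comparison asks whether neutrophil transcripts differ between the genotypes.

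Libraries held 10668637 to 15184371 counts. The acinar list (13 genes) took 201933 to 379514 CPM (counts scaled to a common library size with TMM factors), so all 12 libraries carried the defining transcripts of pancreas. Axl averaged 58.9 ± 12.3 CPM in the wild type and 9.09 ± 2.20 CPM in AMKO libraries (SD, n = 6 each), whereas Mertk counts over the whole gene (6.90 ± 2.96 and 6.75 ± 2.39 CPM) do not check its disruption. Some libraries stood apart. WT 3, WT 6, AMKO 3 and AMKO 6 had the 4 lowest scores on the 16 monocyte and macrophage markers, AMKO 1 and AMKO 5 the 2 highest, and the same 4 libraries are low for most genes described here. WT 1, WT 2 and WT 3 had 2.28, 11.6 and 9.05 CPM summed over the liver list, where every other library had 21.9 or more. WT 3 had 277 CPM on the red blood cell and platelet list, against 9.93 to 47.7 in the others. In bulk tissue, fewer cells of a type and less RNA per cell cannot be told apart.

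The bases upstream of the starts of 5 granule genes and of the calprotectin pair, which is grouped here with the mature members, are printed for comparison. These are RefSeq promoter windows on GRCm38.p6, cut before the first annotated exon and written 5′ to 3′ on the gene's strand. Capitals mark 2 letter patterns searched on both strands, which do not overlap each other here: TTGCNNAA or TTNNGCAA, the core bound by C/EBP factors of the granulocyte lineage, and GAGGAAG or CTTCCTC, a core of the myeloid factor PU.1. The 5 granule genes come first and the calprotectin pair last.
Ngp (chr9:110419558-110419746, + strand): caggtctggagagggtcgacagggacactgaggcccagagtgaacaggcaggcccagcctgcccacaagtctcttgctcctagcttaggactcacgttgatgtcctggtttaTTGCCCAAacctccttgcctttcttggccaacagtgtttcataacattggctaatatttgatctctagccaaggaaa
Ltf (chr9:111019042-111019270, + strand): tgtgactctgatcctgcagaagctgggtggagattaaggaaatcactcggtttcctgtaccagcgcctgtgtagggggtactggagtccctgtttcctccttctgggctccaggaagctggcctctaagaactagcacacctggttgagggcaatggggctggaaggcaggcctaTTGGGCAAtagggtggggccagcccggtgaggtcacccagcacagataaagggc
Camp (chr9:109849618-109849706, - strand): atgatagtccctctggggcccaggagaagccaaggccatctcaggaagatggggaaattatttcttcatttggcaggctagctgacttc
Mpo (chr11:87793534-87793580, + strand): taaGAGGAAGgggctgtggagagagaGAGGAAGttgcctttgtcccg
Elane (chr10:79886062-79886246, + strand): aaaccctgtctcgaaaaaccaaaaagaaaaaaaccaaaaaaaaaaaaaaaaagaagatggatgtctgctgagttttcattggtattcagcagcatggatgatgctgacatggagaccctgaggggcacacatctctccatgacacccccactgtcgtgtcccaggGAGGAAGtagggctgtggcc
S100a8 (chr3:90668821-90668977, + strand): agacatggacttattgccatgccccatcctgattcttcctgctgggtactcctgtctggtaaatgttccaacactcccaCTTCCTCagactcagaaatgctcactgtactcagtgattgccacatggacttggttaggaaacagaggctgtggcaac
S100a9 (chr3:90695722-90695971, - strand): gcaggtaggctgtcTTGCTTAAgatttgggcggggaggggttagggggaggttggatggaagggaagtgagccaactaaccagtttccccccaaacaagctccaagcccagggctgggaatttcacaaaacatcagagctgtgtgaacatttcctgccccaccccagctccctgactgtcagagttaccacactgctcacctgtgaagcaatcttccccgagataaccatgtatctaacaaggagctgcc
In the stretches shown, the C/EBP letters stood once each in Ngp, Ltf and S100a9, and the PU.1 letters in Mpo, Elane and S100a8. Camp held neither, so no pattern was shared by all 5 granule genes. Over whole windows of 250 bases, 28 of the 31 members had a window and 9 of these (32.1%) held the C/EBP letters, beside 10.8% of 27025 genes. The PU.1 letters stood in 8 members (28.6%), beside 12.0% of genes. A match of letters is a description and not evidence of a bound site.

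Most members were high and low in the same libraries. WT 1 had the highest level of 17 of the 25 members that passed the count filter of the test, and AMKO 6 the lowest of 13. For 18 of the 25 the 4 lowest libraries were exactly WT 3, WT 6, AMKO 3 and AMKO 6, which come 2 from each genotype. Among the 22 tested members with over 3 counts in every library, the highest library exceeded the lowest by 2.49-fold (Adam8) to 22.1-fold (Slfn4), with a median of 12.3-fold. The spread that edgeR fits within a genotype, the biological coefficient of variation, had a median of 0.605 over the 25 members and 0.175 over all 13743 genes tested. These ranks and spreads are descriptions with no test.

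**Figure D1:**
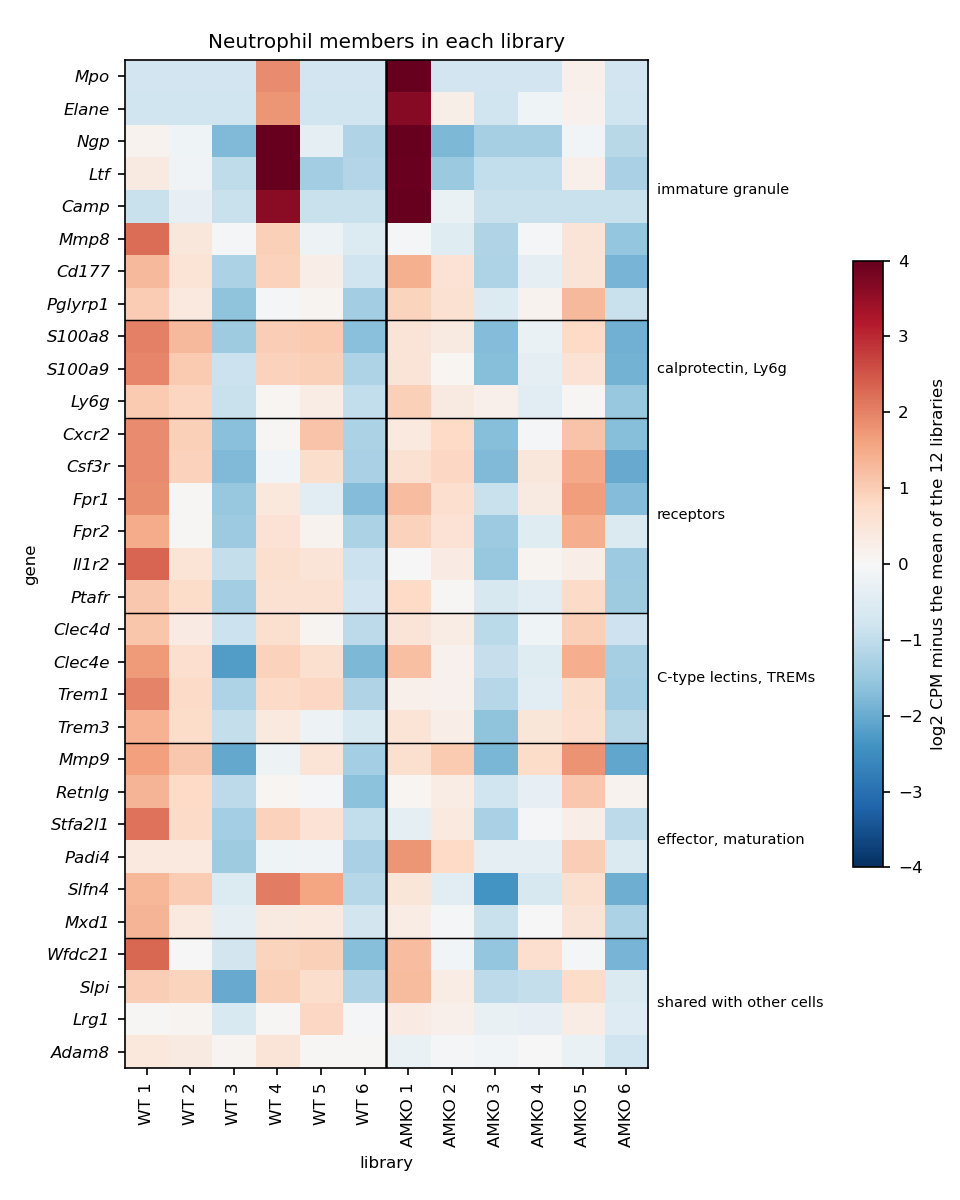
Each row is a member and each column a library; colour gives log2 CPM (prior count of 2) minus the gene's mean over the 12 libraries, with the colour scale ending at 4 in either direction. WT 3, WT 6, AMKO 3 and AMKO 6 are blue for most genes, while Mpo, Elane, Ngp, Ltf and Camp stand out in AMKO 1 and, less so for Mpo and Elane, in WT 4.

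Between the genotypes, 1 of the 25 tested members was lower in AMKO and none was higher (edgeR quasi-likelihood test, adjusted over all genes tested; 3 members had an unadjusted p under 0.05, and DESeq2 and limma voom also called 1). An unadjusted p under 0.05 was found for 21.9% of all genes tested, which is also the background for such counts below from the edgeR fit to every library. DESeq2 called 642 of 14479 genes lower and limma voom 855 of 13743. Over all genes tested in edgeR, 3.37% were called lower, 2.41% higher and 5.78% in either direction, so 1 of 25 is near the background. That member was Adam8, a membrane metalloproteinase of leukocytes and injured epithelium. Fitted log2 fold changes (AMKO minus wild type) were below 0 for 20 members and above 0 for 5, with a median of -0.26 beside 0.00 over all genes tested. The 6 members that did not pass the count filter were Mpo, Elane, Ngp, Ltf, Camp and Ly6g. Ngp and Ltf had 621 and 331 counts in all, most of them in AMKO 1 and WT 4. Adam8 was also the 1 tested member whose genotypes did not overlap, beside 2.3% of all genes tested that lay wholly lower in AMKO and 1.24% wholly higher. Without WT 3, WT 6, AMKO 3 and AMKO 6 no member was called (8 had an unadjusted p under 0.05) and the median was -0.35. That fit called just 98 of 13908 genes, 62 of them lower, so few member calls could arise. Its share of all genes with an unadjusted p under 0.05 was not computed. Without WT 1 alone the median was -0.02. Single libraries weighed on most members: the fitted value of 23 of the 25 moved by over 1.5 times without at least 1 library (all but Adam8 and Slfn4), for 21 of them without WT 1, and 9 changed sign without at least 1 library (Cd177, Csf3r, Fpr2, Clec4d, Clec4e, Trem3, Mmp9, Retnlg and Lrg1). SEs of the members other than Lrg1 and Adam8 ran from 0.34 to 0.70 on the log2 scale.

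**Figure D2:**
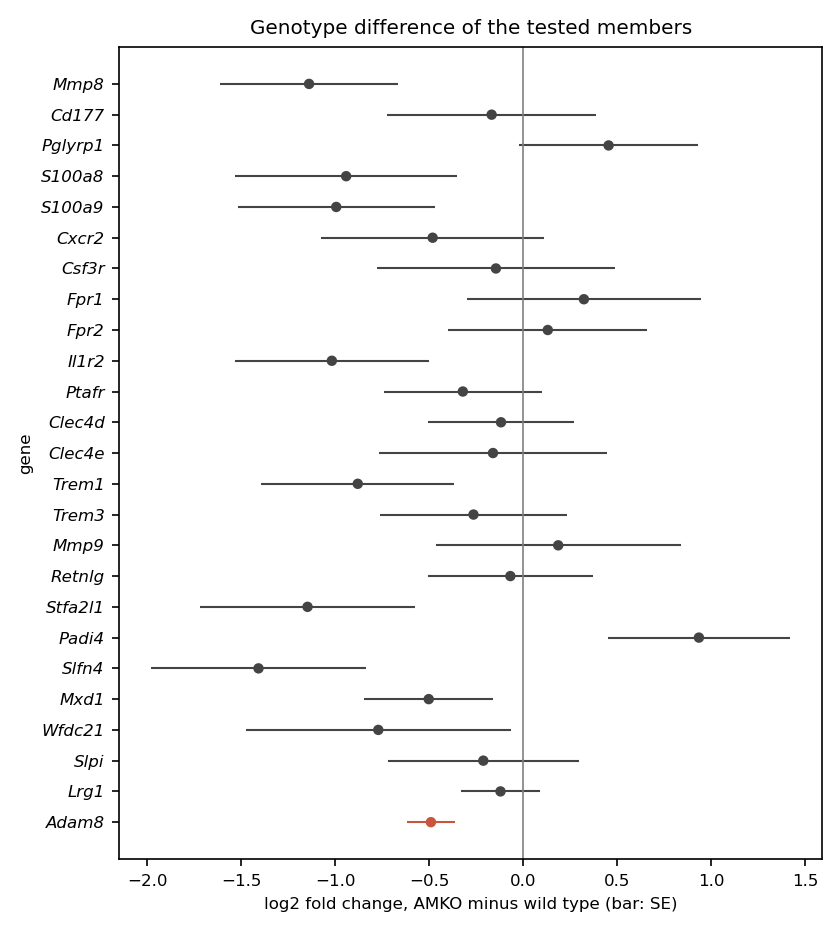
Points are the fitted log2 fold changes (AMKO minus wild type) of the 25 tested members, ordered by role, and bars are 1 SE in each direction. Adam8, in red, is the only called member, at -0.49 with the shortest bar; Slfn4 lies farthest from 0, at -1.41, and Padi4 farthest above 0, at 0.94.

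The granule genes that neutrophils transcribe before leaving the marrow were concentrated in 1 library of each genotype. Ngp, the neutrophilic granule protein, had 397 counts in AMKO 1 and 180 in WT 4, and 1 to 12 in each of the other 10 libraries. Ltf, which encodes lactoferrin, had 158 and 137 in these 2 libraries and at most 11 elsewhere. Camp, the cathelicidin antimicrobial peptide, had 72 and 44, and 0 or 1 elsewhere. The 3 secondary granule genes were thus at comparable levels in AMKO 1 and WT 4.

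The primary granule genes were more unequal between those libraries. Mpo, myeloperoxidase, had 123 counts in AMKO 1, 11 in WT 4, 2 in AMKO 5 and 0 in the other 9. Elane, neutrophil elastase, had 51 in AMKO 1, 10 in WT 4 and 0 to 2 elsewhere. AMKO 1 and WT 4 together held 98.5% of all Mpo counts, 98.3% of Camp, 92.9% of Ngp, 92.4% of Elane and 89.1% of Ltf. A further pair of primary granule proteases that are not members, Ctsg (cathepsin G) and Prtn3 (a serine protease), had 91.04% and 61.1% of their counts there.

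The pattern was searched for in the whole table after it had been seen. Of 46095 genes, 4 had at least 10 counts in both AMKO 1 and WT 4 and a CPM more than 5-fold above every other library in each of them. These 4 were Ngp, Ltf, Camp and Mpo. WT 4 and AMKO 1 were not the libraries with most S100a9, which stood at 96.9 and 73.0 CPM there but at 196 CPM in WT 1, where Ngp had 12 counts. Per S100a9 count there were 0.336 Ngp counts in AMKO 1 and 0.139 in WT 4, and 0.00147 to 0.0159 in the other 10. AMKO 1 also stood apart on other lists: it was the highest library for the dendritic cell list (294 CPM, against 49.6 to 150 in the others), the T and NK cell list (14.99, against 0.433 to 7.11) and the mast cell and eosinophil list (58.0, against 21.9 to 49.4). The B and plasma cell list summed to 755 CPM in AMKO 1, within the 646 to 948 CPM of the others. Its mean log2 CPM was highest in AMKO 1 (3.74, against at most 2.75 elsewhere). On that list Cd79a, a B cell receptor chain, stood at 36.0 CPM in AMKO 1 and at most 16.6 elsewhere. WT 4 was within the range of the other libraries on these lists, and the part of these cells in the granule counts was not tested.

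**Figure D3:**
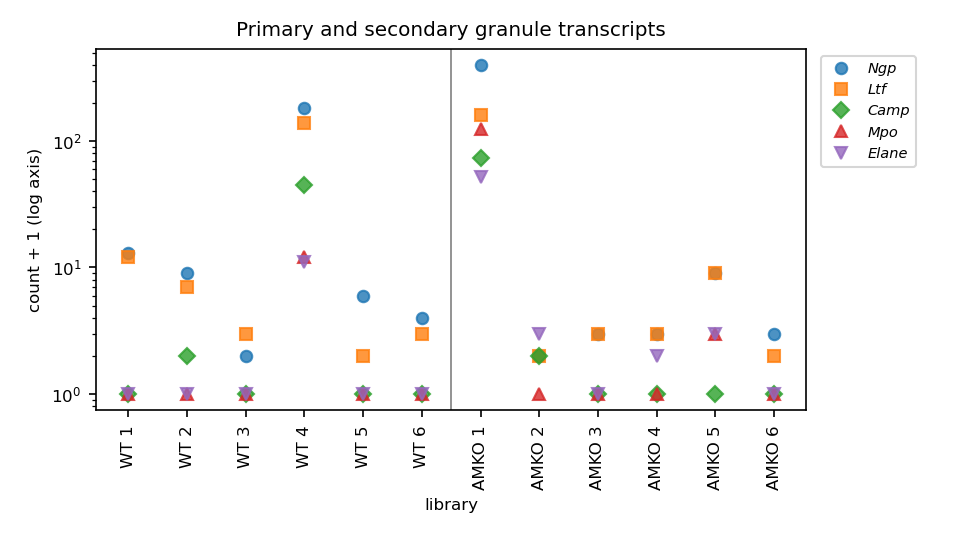
Raw counts plus 1 (log axis) of the 3 secondary and 2 primary granule genes in each library, with wild type left of the line. Each gene has its highest counts in AMKO 1 and WT 4, though Mpo and Elane reach just 11 and 10 counts in WT 4. No gene exceeds 12 counts in any other library.

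The remaining 3 granule genes passed the count filter and had a smaller share of their counts in that pair, 33.4% for Cd177, 22.3% for Pglyrp1 and 19.0% for Mmp8. Mmp8, the neutrophil collagenase, ranged from 3.85 to 27.3 CPM in wild type (median 6.60) and from 1.84 to 8.14 CPM in AMKO (median 4.67). Its highest value was in WT 1, and without that library the log2 fold change of -1.14 (SE 0.47, adjusted p = 0.176) became -0.52. Cd177, a surface glycoprotein of neutrophils, had medians of 2.19 and 1.77 CPM (log2 fold change -0.17, SE 0.55, adjusted p = 0.894). Its highest library was AMKO 1, at 4.50 CPM, and the fitted value was -0.62 without AMKO 1 and 0.14 without WT 1. Pglyrp1, a peptidoglycan recognition protein of granules, had 2.38 and 3.10 CPM (0.46, SE 0.47, adjusted p = 0.617). None of the 3 was called, by edgeR, DESeq2 or limma voom, and 1 had an unadjusted p under 0.05.

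Calprotectin, a heterodimer of S100A8 and S100A9 that makes up much of the neutrophil cytosol and is also made by monocytes, gave the highest levels per length. S100a9 had a median level per exon length of 187 in wild type and 90.2 in AMKO, both as CPM per kilobase, and S100a8 77.5 and 40.0. The 2 genes lie near each other on chromosome 3 (90668978 to 90670035 for S100a8 and 90692632 to 90695721 for S100a9, GRCm38). S100a8 ranged from 8.17 to 106 CPM in wild type (median 53.8) and from 6.81 to 46.0 CPM in AMKO (median 27.8). Both groups split in the same way, with 4 libraries at 52.5 CPM or more and 2 below 10 in wild type, and 4 at 21.7 or more and 2 below 8 in AMKO.

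S100a9 ranged from 21.7 to 196 CPM in wild type (median 97.7) and from 13.6 to 76.6 CPM in AMKO (median 47.1). Each of WT 1, 2, 4 and 5 lay above every AMKO library for both genes, while WT 3 and WT 6 lay among the lowest. Fitted log2 differences were -0.94 for S100a8 (SE 0.59, adjusted p = 0.375) and -0.99 for S100a9 (SE 0.52, adjusted p = 0.288), and neither passed. With the replicate number added to the edgeR fit as a block, both were called lower (adjusted p = 0.0229 and 0.00362), beside 3.68% of all genes tested. No label ties libraries of equal number, so that fit is an alternative. Without WT 1 they were -0.55 and -0.60. Counts of S100a9 per count of S100a8 were 1.60 to 2.83 in wild type, highest in WT 3 and WT 6, and 1.60 to 2.0 in AMKO.

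Ly6g, the surface antigen by which mouse neutrophils are usually sorted, had 57 counts over all 12 libraries. It had 1 to 12 counts per library in wild type (median 4) and 0 to 11 in AMKO (median 4), too few for the test. A low count here may also reflect how reads were assigned to genes, which was not tested: Ighm, the IgM heavy chain, and Trbc2, a T cell receptor chain, were listed at 0 in every library. No near-identical transcript of Ly6g was found.

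**Figure D4:**
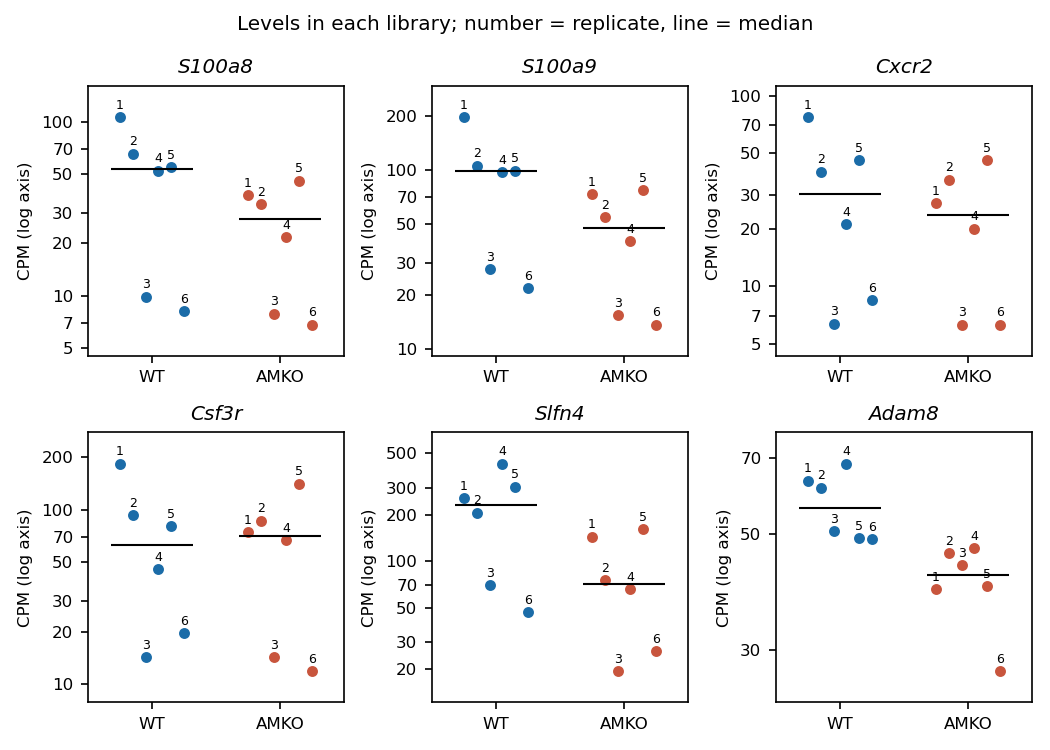
CPM on a log axis for 6 members, with wild type in blue and AMKO in red; each point is a library labelled with its replicate number and the line is the median of 6. Replicates 3 and 6 are low in both genotypes for all but Adam8, for which every AMKO point (27.4 to 47.1) lies below every wild type point (48.9 to 68.3).

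Among the receptors, none of 6 passed the test by edgeR, DESeq2 or limma voom, or had an unadjusted p under 0.05 in edgeR. Cxcr2, the receptor for CXCL1, CXCL2 and CXCL5, ranged from 6.36 to 77.3 CPM in wild type (median 30.6) and from 6.27 to 46.0 CPM in AMKO (median 23.6), which gave a fitted log2 difference of -0.48 (SE 0.59, adjusted p = 0.68) and of -0.02 without WT 1. Its lowest library was alike in both groups, and WT 1 alone exceeded the AMKO range. Csf3r, the G-CSF receptor that sustains neutrophil production, ranged from 14.3 to 183 CPM (median 63.0) and from 11.9 to 141 CPM (median 70.5), at -0.14 (SE 0.63, adjusted p = 0.919). Here AMKO 5 exceeded every wild type library other than WT 1.

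The formyl peptide receptors, which sense bacterial and mitochondrial peptides, had medians above or near those of wild type. Fpr1 had 4.81 and 7.81 CPM, wild type first (0.32, SE 0.62, adjusted p = 0.803; 1.07 without WT 1 and 0.01 without AMKO 5), and Fpr2 6.76 and 7.06 CPM (0.13, SE 0.53, adjusted p = 0.911). Il1r2, the decoy receptor that binds interleukin 1 without signalling, ranged from 5.46 to 54.0 CPM in wild type (median 15.5) and from 3.66 to 13.5 CPM in AMKO (median 11.02). Its log2 fold change of -1.02 (SE 0.52, adjusted p = 0.268) became -0.33 without WT 1, which held the value of 54.0. Ptafr, the receptor for platelet-activating factor, had medians of 22.6 and 13.1 CPM (-0.32, SE 0.42, adjusted p = 0.704).

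The innate sensors were the C-type lectins Clec4d and Clec4e, neighbours on chromosome 6 that recognise mycobacterial glycolipid and dead cells, and the TREM receptors, which amplify inflammatory signalling. Medians were 23.6 and 21.4 CPM for Clec4d, 22.4 and 13.2 for Clec4e, 8.38 and 4.44 for Trem1, and 1.22 and 1.48 for Trem3, wild type first. All 4 had overlapping groups and fitted values below 0, from -0.12 (Clec4d) to -0.88 (Trem1, SE 0.51, adjusted p = 0.339), the latter -0.39 without WT 1. None was called by edgeR, DESeq2 or limma voom, and none had an unadjusted p under 0.05 in edgeR.

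Of the effector and maturation genes, Slfn4 was the member with the widest genotype difference. This Schlafen family gene, which is induced by interferon in myeloid cells, ranged from 46.7 to 429 CPM in wild type (median 231) and from 19.4 to 161 CPM in AMKO (median 71.0). WT 1, 2, 4 and 5 exceeded every AMKO library, whereas WT 3 (70.2) and WT 6 (46.7) lay within the AMKO range. The log2 fold change of -1.41 (SE 0.57, adjusted p = 0.163) did not pass. With the replicate number as a block Slfn4 was called lower, though no label ties libraries of equal number. Slfn4 shares 96.2% of 1172 aligned bases with Slfn3, which had 247 counts in all against 24359. Its count is uncertain by an amount that is not known, since how reads were assigned is not given.

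Padi4, the enzyme that citrullinates histones in neutrophil extracellular traps, was the member with the highest fitted value in AMKO. It ranged from 0.408 to 1.85 CPM in wild type (median 1.21) and from 0.865 to 4.997 CPM in AMKO (median 1.74), at 0.94 (SE 0.48, adjusted p = 0.279). Its highest library was AMKO 1, which also carried the granule transcripts, and without it the value was 0.52. Stfa2l1, a stefin-like cysteine protease inhibitor, stood at medians of 1.80 and 0.910 CPM (-1.15, SE 0.57, adjusted p = 0.261; -0.52 without WT 1), and it shares 96.5% of 368 aligned bases with Stfa2, which was listed at 0.

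The other 3 genes of this group differed less. Mmp9, gelatinase B of the tertiary granules, ranged from 4.73 to 63.4 CPM in wild type (median 23.7) and from 4.65 to 70.7 CPM in AMKO (median 32.8), at 0.19 (SE 0.65, adjusted p = 0.898). Retnlg, a resistin-like protein of mature neutrophils, had medians of 8.81 and 9.38 CPM, and Mxd1, a MYC antagonist expressed as neutrophils mature, 33.5 and 25.2 CPM. With genotype alone in the fit, none of the 6 effector and maturation genes was called by edgeR, DESeq2 or limma voom, and Slfn4 was the 1 with an unadjusted p under 0.05 in edgeR.

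The last 4 members are shared with other cells of the organ. Adam8 and Lrg1 varied less within genotypes than the other members. Slpi and Wfdc21 did not, with coefficients of variation of 0.603 and 0.825. Adam8 ranged from 48.9 to 68.3 CPM in wild type (median 56.0) and from 27.4 to 47.1 CPM in AMKO (median 41.7). Every AMKO library lay below every wild type library. Means were 57.0 ± 8.39 and 40.5 ± 7.20 CPM (SD, n = 6 each), which is -0.49 on the log2 scale (SE 0.13, edgeR adjusted p = 0.0381), lower in 6 of 6 AMKO libraries. Its coefficient of variation within genotypes, 0.161, lay at percentile 43.9 of all genes, whereas 23 of the other members lay at percentile 91.6 or higher and Lrg1 at 74.1. Of the 4 libraries that were low for most members, 2 were among the 4 lowest for Adam8. Among the 12 fits that each left out 1 library, 6 no longer called Adam8, namely those without WT 1, 2 or 4 or AMKO 2, 3 or 5 (adjusted p up to 0.0844), and also with total-count scaling (0.0843), with WT 4 to 6 or WT 1 to 3 as the only wild type (0.228 and 0.121), without WT 3, WT 6, AMKO 3 and AMKO 6 (0.0911) and without AMKO 1 and WT 4 (0.0993), while every one of these fits kept it lower in AMKO.

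Lrg1, a secreted glycoprotein of neutrophils, endothelium and liver, ranged from 23.6 to 64.2 CPM in wild type (median 37.4) and from 25.5 to 46.0 CPM in AMKO (median 35.6). Slpi, the secretory leukocyte protease inhibitor that epithelium also makes, ranged from 5.87 to 48.3 CPM (median 42.4) and from 11.7 to 58.3 CPM (median 23.0). Wfdc21, a small protease inhibitor domain protein, had 2 to 72 counts in wild type and 1 to 33 in AMKO. Their log2 fold changes were -0.12, -0.21 and -0.77, and none passed (adjusted p = 0.782, 0.846 and 0.561). Without WT 1 the value for Wfdc21 was -0.01. The duct and surface epithelium list, which could contribute to Slpi, summed to 13744 to 17722 CPM in wild type and 12366 to 19322 CPM in AMKO. Of its 10 genes, 8 had fitted values below 0 and 2 were called lower in AMKO, Epcam (-0.50, adjusted p = 0.00851) and Muc1 (-0.53, adjusted p = 0.0195). On the endothelium list all 8 genes were fitted below 0 and 1 was called lower, Kdr (-0.83, adjusted p = 0.00752). The part of these cells in the values of Adam8, Slpi and Lrg1 was not tested.

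The members were then read against macrophage markers in the same library, because the libraries with low member levels were also those with low macrophage scores. The monocyte and macrophage list summed to 337 to 682 CPM in wild type and 434 to 1040 CPM in AMKO (medians 613 and 595). In edgeR 13 of its 16 tested genes had fitted values above 0 (median 0.32, lowest -1.21). Of these 1, the mannose receptor Mrc1, was called higher in AMKO (log2 fold change 0.81, edgeR adjusted p = 0.0211). In limma voom 6 of the 16 were fitted below 0 and the median was 0.03. AMKO 5 and AMKO 1 had the highest macrophage sums, 1040 and 902 CPM, with 889 and 712 CPM on the 23 mature members. WT 1 had 682 CPM on the macrophage list and 1371 CPM on the mature members.

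With the mean of the macrophage list as a covariate in the edgeR fit, 8 of 25 members were lower in AMKO and none higher, beside 7.17% of all genes tested called lower in that fit and 12.9% called in either direction. Slfn4 stood at -1.79 (SE 0.26, adjusted p = 0.000612), S100a9 at -1.28 (SE 0.28, adjusted p = 0.00883) and S100a8 at -1.20 (SE 0.33, adjusted p = 0.0283). Adam8, Mmp8, Ptafr, Trem1 and Mxd1 were the other 5, with log2 fold changes from -0.51 to -1.37 and adjusted p from 0.0117 to 0.0438. Cxcr2, Csf3r, Fpr1, Fpr2 and Mmp9 were not among them. On the macrophage list itself, that fit called Ly6c2 lower and Mrc1 higher in AMKO. The member calls hold at a given macrophage marker level, so they describe the balance between the sets and not the amount of neutrophil RNA. Without the covariate most genes of that list had fitted values above 0. SEs were also larger without it, at 0.57 for Slfn4, 0.52 for S100a9 and 0.59 for S100a8. The part of either in these calls was not tested.

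**Figure D5:**
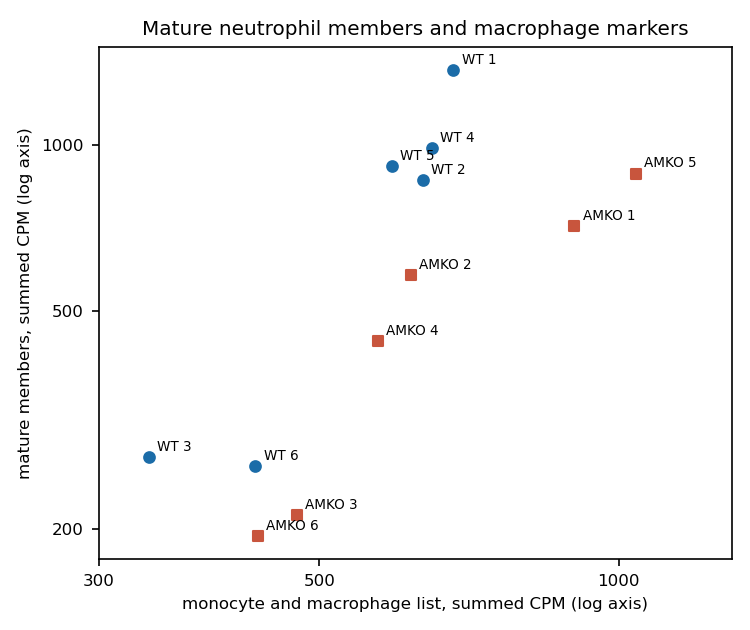
Each point is a library, placed by the summed CPM of the 16 monocyte and macrophage markers (x, log axis) and of the 23 mature members (y, log axis), with wild type as blue circles and AMKO as red squares. AMKO 1 and AMKO 5 lie farthest right at 902 and 1040 CPM, with 712 and 889 CPM on the mature members against 865 to 1371 CPM in WT 1, 2, 4 and 5, and replicates 3 and 6 of both genotypes lie at the lower left.

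Members were also unequal among themselves within a library. Counts of S100a9 per count of Csf3r were 1.07 to 2.12 in wild type (median 1.18) and 0.545 to 1.15 in AMKO (median 0.805). The wild type libraries with the highest ratios were WT 4 (2.12) and WT 3 (1.94), and AMKO 5, 4 and 2 had the lowest (0.545, 0.599 and 0.626). The ranges overlapped, since AMKO 6 (1.15) and AMKO 3 (1.08) lay above WT 1 (1.07). Slfn4 per count of Csf3r was 1.40 to 9.38 in wild type (median 3.08) and 0.876 to 2.20 in AMKO (median 1.25). Csf3r, the denominator of both, shares 96.8% of 1518 aligned bases with AC105061.2, which has no row among the deposited counts, so its count is uncertain. These 2 ratios were chosen after their values were seen and carry no test.

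Other neutrophil genes, a list of 41 in the table that shares no gene with the members, was set beside them. Of 35 tested, none was called by edgeR, DESeq2 or limma voom (2 had an unadjusted p under 0.05 in edgeR), 22 had fitted values below 0, and the median was -0.08. With the macrophage covariate 5 of the 35 were called lower (Acod1, Hdc, Hp, Lilrb4a and Osm) and 1 higher (Cebpb). Lcn2, the siderophore-binding lipocalin of secondary granules that injured epithelium also makes, stood at 311 ± 97.1 and 251 ± 87.0 CPM (-0.31, SE 0.22, adjusted p = 0.441). Itgam, the CD11b integrin chain, stood at 132 ± 78.6 and 131 ± 67.8 CPM (-0.01, adjusted p = 0.992), and Il1b at 21.0 ± 18.8 and 11.04 ± 7.37 CPM (-0.92, SE 0.60, adjusted p = 0.396; SD, n = 6 each). Adgre1, a macrophage surface marker, stood at 0.24 (SE 0.47, adjusted p = 0.805).

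Of the ligands and endothelial attachment genes, none of 8 tested passed in edgeR (3 had an unadjusted p under 0.05; limma voom called none and DESeq2 called Cxcl5 lower). Cxcl2 and Cxcl1, ligands of CXCR2, were fitted at -0.77 (SE 0.58, adjusted p = 0.466) and at -0.80 (SE 0.42, adjusted p = 0.287) on the log2 scale, and Cxcl5 at -1.45 (SE 0.43, adjusted p = 0.0641). In edgeR Cxcl5 was called lower without WT 3, WT 6, AMKO 3 and AMKO 6, and Cxcl5 and Il6 were called lower with the macrophage covariate. Csf3, which encodes the ligand of CSF3R, had 0 to 13 counts in wild type and 0 to 3 in AMKO and was not tested.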

How the data were processed

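Pancreas RNA in 12 libraries was measured by RNA sequencing. HISAT2 2.0.4 and the mm10 build come from the submitters' processing notes. How reads were counted, on which annotation and with what use of strand: not given in the sources used here. Values were deposited as raw counts per gene, in 1 column per sample, matched by title. The genotypes were compared with edgeR 4.0.16 under R 4.3.3 (quasi-likelihood F test, TMM factors, filterByExpr, no covariate), and p was adjusted by Benjamini-Hochberg over 13743 genes; a gene was called at an adjusted p under 0.05. SE is the log2 fold change divided by the root of F. CPM uses the TMM-scaled library sizes. DESeq2 1.42.0 and limma 3.58.1 were alternatives, with other scalings, filters, covariates and sets of libraries. The fit was tested on simulated data. Positions and exon lengths are from GENCODE M21 (GRCm38), promoters from RefSeq. Near-identical copies were sought with BLAST 2.17.0 at 95% identity over at least 300 bases. The members and lists were chosen with earlier results of these data known. All 31 members are accounted for; full statistics go to the members with the smallest p or largest difference in each role and to any called member, and of other genes to a fixed set. One alternative, without AMKO 1 and WT 4, was added after seeing the data. Gene counts sharing sequence with a copy are uncertain.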

Additional observations from a re-analysis of the deposited data

Results flagged for a closer look

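In 62 combinations of member and genotype (6 libraries each), 11 had a library far from the others of its genotype on the log2 CPM scale. Chance alone gives about 1 in 20 for normally distributed values. That rate does not hold for genes near 0 counts, such as Mpo and Elane in wild type, where every library other than WT 4 had 0. In WT 4 these were Ngp at 13.5 CPM, Ltf at 10.3, Camp at 3.29, Mpo at 0.823 and Elane at 0.748, each the highest of its genotype. In AMKO 1 they were the same 5 genes, with Ngp at 24.5 CPM, Ltf at 9.75, Mpo at 7.59, Camp at 4.44 and Elane at 3.15. The 10 values are not independent, since they come from 2 libraries. The last was Adam8 in AMKO 6, at 27.4 CPM (253 counts, against 513 to 636 in the other AMKO libraries); without AMKO 6 its log2 fold change was -0.39 and it was still called.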

How the results depend on the processing

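The number of genes called, 794, was 456 with total-count scaling, 1267 with DESeq2, 1664 with limma voom, 1777 with the macrophage covariate, 167 and 231 with WT 4 to 6 or WT 1 to 3 as the only wild type, and 98 without WT 3, WT 6, AMKO 3 and AMKO 6. Leaving out 1 library gave 411 to 1140, with 524 without WT 2, 505 without WT 4, 421 without AMKO 2 and 411 without AMKO 3. The 1 member called, among the mature members, became 0 with total-count scaling, with either wild type subset, without those 4 libraries and without AMKO 1 and WT 4 (an alternative added after seeing the data), and 0 to 1 without 1 library. With the macrophage covariate 8 members were called, 7 mature and 1 granule. The cause of these changes was not tested, beyond the fewer libraries in the subsets. The median member difference stayed below 0 in all 26 alternatives, from -0.51 without AMKO 1 to -0.02 without WT 1 among fits that left out 1 library. Of 648 member values under alternatives, 627 kept their side of the threshold, 11 lost a call (all Adam8), 10 gained one and no called value reversed.

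With the replicate number as a block, 910 genes and 4 members were called, all 4 mature and lower in AMKO: S100a8 (adjusted p = 0.0229), S100a9 (0.00362), Slfn4 (0.00702) and Adam8 (0.0111), beside 3.68% of genes called lower. The block also called Cxcl5 lower and Cebpb higher. No label ties libraries of equal number to one litter, day or batch. Deviations of same-numbered libraries correlated at -0.16 to 0.35 (over 0.1 in 4 of 6 pairs, below 0 in 2), and 3 of 12 libraries correlated best with their own number, so the numbers were not treated as pairs. Depth limits Mpo, Elane, Camp and Ly6g, which had 57 to 136 counts in all.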
